A study of Rattus norvegicus with 10 samples.

Results

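The miR-142, miR-150 and miR-342 hairpins each give 2 mature microRNAs, named 5p and 3p after the hairpin arm they come from. All rows of the deposited count tables whose name begins with rno-miR-142, rno-miR-150 or rno-miR-342 were taken, which found 6 mature miRNAs of 723 listed: miR-142-5p, miR-142-3p, miR-150-5p, miR-150-3p, miR-342-3p and miR-342-5p. The study sequenced small RNA from tissue of female Wistar rats with collagen-induced arthritis (CIA), a model in which immunisation with collagen gives an inflammatory joint disease. There were 10 libraries in 5 groups of 2. CIA_B was taken before therapy, MS_E and MS_A came 1 h and 34 days into mechanical stimulation (labelled AP, in which a thin needle was inserted and twirled), and PLA_E and PLA_A came at the same times from placebo rats given a peritoneal injection of saline. All 5 groups carried the arthritis, and the labels do not say whether the 2 libraries of a group came from separate animals, so p-values measure the spread between these libraries, which may be technical. The labels name the tissue as muscle from below the epidermis, the design text once calls the samples blood, and the study's methods describe subcutaneous tissue, subcutaneous muscle included, around the stimulated points, away from the placebo injection.

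Mature miRNAs are cut from their hairpins by Drosha and Dicer and guide the silencing of messenger RNAs that pair with the seed, bases 2 to 8 of the miRNA. miR-142 is made across the blood cell lineages and is a common marker of leukocytes. miR-150 is abundant in mature lymphocytes, where it restrains the transcription factor Myb, and miR-342 lies in an intron of the Evl gene and is also found in leukocytes. In a piece of tissue such miRNAs can come from whatever leukocytes it holds, be they resident or infiltrating, in blood or in lymphoid tissue. The cells they came from here were not tested. Since the RNA came from whole tissue, fewer cells of a type and less RNA per cell cannot be told apart.

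The sequences below, from RefSeq (build GRCr8, a different build from the rn4 of the deposited counts), are shown to let the arms of each hairpin be told apart. Capitals mark the seed. Entries for 4 of the 6 miRNAs were found, on the plus strand at chr10:73055119-73055139 (miR-142-5p), chr10:73055155-73055177 (miR-142-3p), chr6:133329715-133329737 (miR-342-3p) and chr6:133329673-133329694 (miR-342-5p).
miR-142-5p: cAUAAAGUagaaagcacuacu
miR-142-3p: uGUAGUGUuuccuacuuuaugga
miR-342-3p: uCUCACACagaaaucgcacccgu
miR-342-5p: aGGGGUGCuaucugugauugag
The 4 seeds are distinct, and none of the other mature miRNAs among the 724 in that table has any of them. The hairpin of miR-142, which spans 87 bases at chr10:73055104-73055190, is given because its arms are compared library by library further on, with both mature miRNAs in capitals.
miR-142 hairpin: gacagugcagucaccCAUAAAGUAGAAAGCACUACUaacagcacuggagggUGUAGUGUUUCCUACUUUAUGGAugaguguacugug

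Reads on miRNAs ran from 1513799 to 8926170 per library, and levels are given as cpm, the count of a miRNA relative to the TMM-scaled size of its library, so that 3 counts were worth 2.60 cpm in CIA_B replicate 1, the shallowest library, and 0.366 to 0.828 cpm in the other 9. A set of 6 skeletal muscle miRNAs summed to between 83967 and 268670 cpm, so markers of the labelled tissue were present in every library. The 2 libraries of each group differed in miR-1-3p, a miRNA of muscle fibres, with 80416 to 122986 cpm in one and 10117 to 15567 cpm in the other. miR-206-3p divided the same way, at 12034 to 16100 and 1143 to 1868 cpm. miR-133a-3p, also a muscle miRNA, did not. It was higher in the library with less miR-1-3p in PLA_E (118963 against 70519 cpm) and PLA_A (139388 against 89188 cpm). In CIA_B, MS_E and MS_A it was lower there. What the division reflects was not tested. The libraries with more miR-1-3p were replicate 1 of CIA_B, PLA_E and PLA_A and replicate 2 of MS_E and MS_A. Values are set beside this division where they moved with it. In the tests, run over the 359 miRNAs that reached 1 cpm in at least 5 libraries, a miRNA is termed called where it changed by over 2-fold with an unadjusted p below 0.05 in the quasi-likelihood test of edgeR. All 6 miRNAs were among those tested. No miRNA had an adjusted p under 0.05 in any of the 10 comparisons by that test, so every call below rests on the unadjusted p.

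The 6 miRNAs stood higher in PLA_A replicate 1 than in any other library, by 3.61 to 12.8 times the highest of the other 9. Among the 359 miRNAs ranked by that ratio they took places 1 to 6, with miR-142-3p first at 12.8, then miR-142-5p at 10.6, miR-150-3p at 6.33, miR-342-5p at 5.22, miR-150-5p at 4.18 and miR-342-3p at 3.61. The next, miR-92a-1-5p, reached 2.50 (named after its value was seen). PLA_A replicate 1 was the highest library for 63 of the 359 miRNAs, or 17.5%, and exceeded the others by over 2 times for 8 of them. The other 9 libraries each held the highest level of 11 to 60 miRNAs and of none of the 6. MS_E replicate 1 also stood apart, exceeding the others by over 2 times for 15 miRNAs, up to 85.2 times for miR-34c-5p (named after its value was seen), and it enters the comparisons with MS_E, the interaction and the pooled comparison of the 8 libraries with CIA_B. Summed, the 6 miRNAs took 1.30% of the normalised reads of PLA_A replicate 1 and 0.0582% to 0.177% in the other 9 libraries, among them 0.112% in PLA_A replicate 2. The 2 arms of a hairpin come from a single transcript, so the 6 values stand for 3 hairpins, and these ratios describe single libraries and carry no test.

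**Figure D1:**
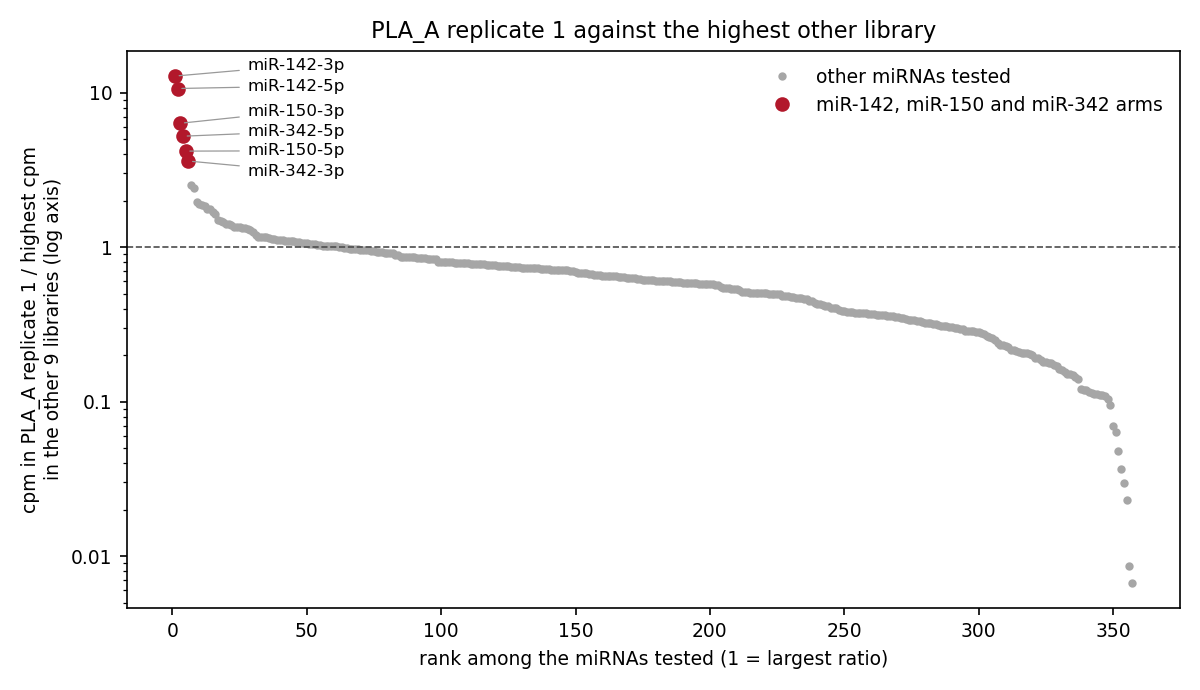
Level in PLA_A replicate 1 divided by the highest level in the other 9 libraries (y, log axis) for the miRNAs tested, ordered by that ratio (x, rank); each point is a miRNA, 2 with a ratio of 0 are not drawn, and the dashed line marks equal levels. The 6 arms of miR-142, miR-150 and miR-342 (large points) hold ranks 1 to 6, with ratios from 3.61 to 12.8.

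rno-miR-142-5p, the arm with more reads of this leukocyte hairpin, was at 101 and 209 cpm in CIA_B. MS_E gave 258 and 303 cpm, PLA_E 372 and 240, MS_A 263 and 226 and PLA_A 5855 and 551 cpm. Both PLA_A libraries were above every other library, and both CIA_B libraries were below every other library. Between these ends the 6 libraries of MS_E, PLA_E and MS_A ran from 226 to 372 cpm, and the ranges of MS_E and MS_A each overlapped that of PLA_E. The counts behind the values ran from 117 reads in CIA_B replicate 1 to 23504 in PLA_A replicate 1.

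rno-miR-142-3p, from the other arm of the same hairpin, was at 4.33 and 5.0 cpm in CIA_B. MS_E gave 8.96 and 28.4 cpm, PLA_E 49.7 and 7.17, MS_A 11.4 and 22.8 and PLA_A 636 and 30.8 cpm. As for the 5p arm, the 8 libraries taken after therapy began were all above both CIA_B libraries, but PLA_E replicate 1 was above PLA_A replicate 2. The lowest value rests on 5 reads, with an exact 95% Poisson interval of 1.62 to 11.7 reads, which covers counting error only.

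rno-miR-150-5p, the arm of the lymphocyte miRNA that held nearly all its reads, was at 572 and 343 cpm in CIA_B. MS_E gave 256 and 1381 cpm, PLA_E 1156 and 456, MS_A 473 and 1488 and PLA_A 6222 and 527 cpm. Apart from PLA_A replicate 1, the spread within a group reached 5.40 times, in MS_E, and the ranges of all 5 groups overlapped. Its partner rno-miR-150-3p was at 1.73 and 3.97 cpm in CIA_B. MS_E gave 3.24 and 5.31 cpm, PLA_E 7.24 and 4.14, MS_A 4.27 and 4.63 and PLA_A 45.8 and 5.10 cpm. The 9 libraries other than PLA_A replicate 1 held between 2 and 54 reads of miR-150-3p.

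rno-miR-342-3p, the main arm of the Evl-intron hairpin, was at 32.9 and 19.1 cpm in CIA_B. MS_E gave 76.3 and 34.5 cpm, PLA_E 27.9 and 15.7, MS_A 13.0 and 27.8 and PLA_A 275 and 9.12 cpm. The highest and the lowest of the 10 libraries were therefore the 2 libraries of PLA_A. rno-miR-342-5p was scarce, with 0 and 12 reads in CIA_B. MS_E gave 5 and 9 reads, PLA_E 9 and 1, MS_A 2 and 6 and PLA_A 37 and 7 reads. The 0 in CIA_B replicate 1 allows a level of up to 2.60 cpm (3 counts), above the level measured in 8 of the other libraries, so no difference between it and those 8 was detectable at this depth.

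**Figure D2:**
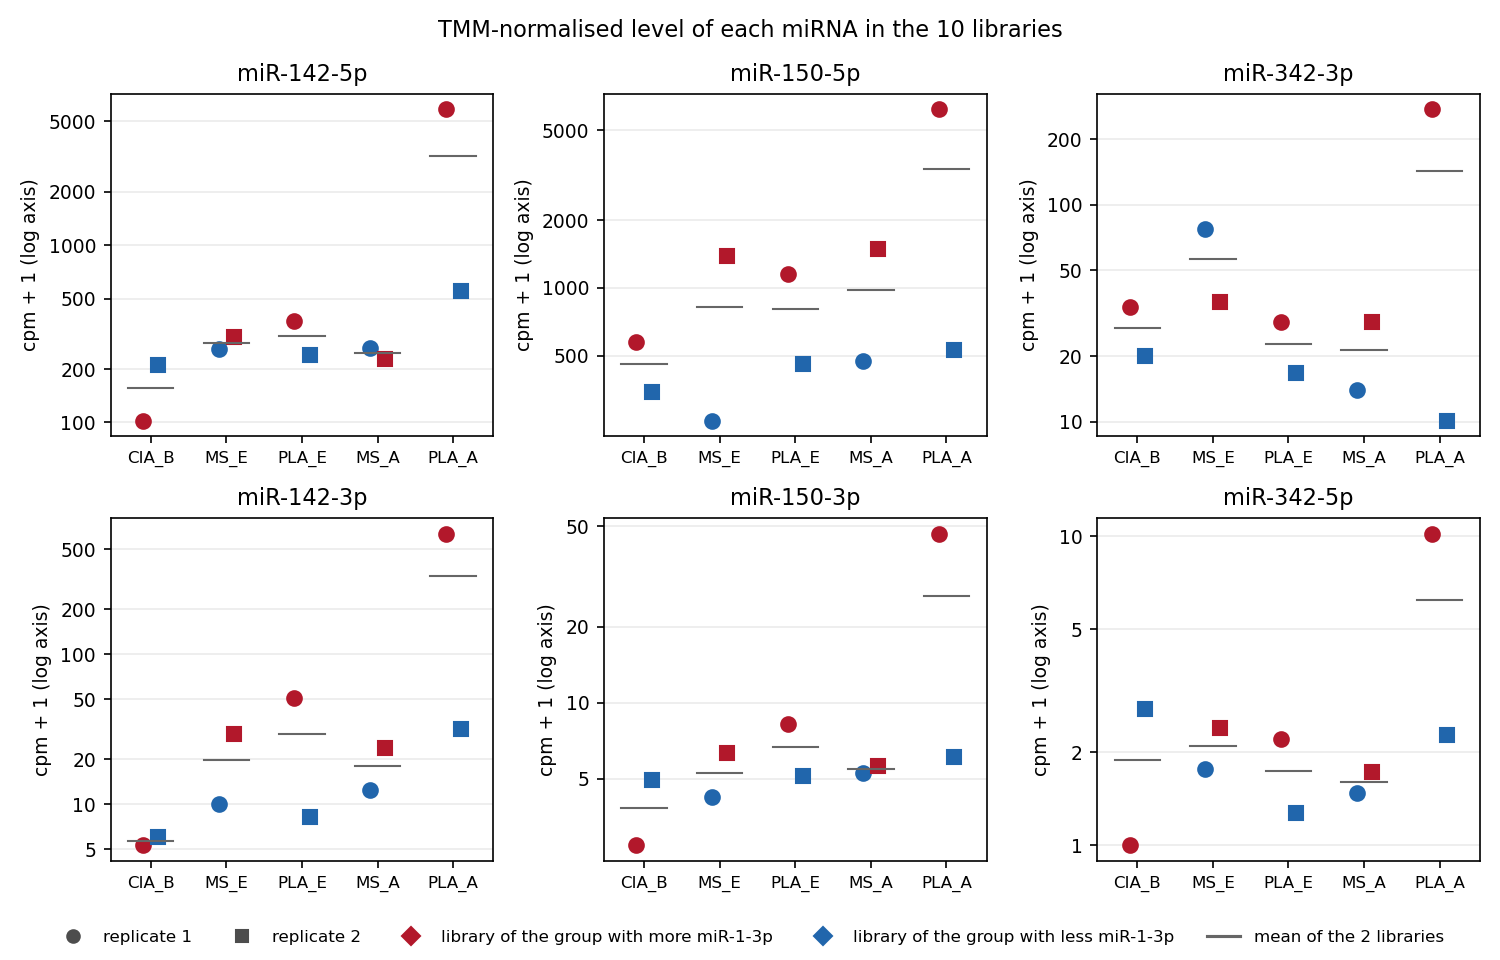
Levels of the 6 miRNAs (y, cpm + 1 on a log axis) in the 5 groups (x); circles and squares are replicates 1 and 2, red marks the library of each group with more miR-1-3p and blue the one with less, and the line is the mean of the 2. PLA_A replicate 1 is the highest point of all 6 panels, at 5855 cpm for miR-142-5p against 551 cpm in PLA_A replicate 2.

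PLA_A was compared with CIA_B to follow the placebo arm from before therapy to 34 days. Of the 6 miRNAs, 4 were called higher in PLA_A (4.74% of the miRNAs tested were called higher). miR-142-5p rose by 4.36 on the log2 scale (SE 0.981, adjusted p = 0.543, Benjamini-Hochberg adjustment of the quasi-likelihood p of edgeR), and miR-142-3p rose by 6.03 (SE 1.56, with the same adjusted p). miR-150-3p and miR-150-5p rose by 2.89 (SE 0.981) and 2.88 (SE 1.20), while miR-342-3p (log2 difference 2.45, SE 1.21) and miR-342-5p (1.83, SE 1.16) did not pass. The median over the 6 was 2.89 on the log2 scale, against 0.111 over all miRNAs tested. The groups did not overlap for 3 of the 6, against 20.9% of all miRNAs with both PLA_A libraries above both CIA_B libraries.

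The 2 PLA_A libraries differed in this rise. Without PLA_A replicate 1 the log2 difference was 1.80 for miR-142-5p (SE 0.598) and 2.61 for miR-142-3p (SE 1.09), with an adjusted p of 0.816 for both by edgeR, and these remained the only 2 of the 6 called. The other PLA_A library alone gave 0.63 for miR-150-3p, 0.25 for miR-150-5p, -1.42 for miR-342-3p and 0.03 for miR-342-5p. Both arms of miR-142 were called in all 20 alternative analyses of PLA_A against CIA_B, with log2 differences from 1.80 to 5.10 for miR-142-5p and from 2.61 to 6.84 for miR-142-3p. DESeq2 gave adjusted p = 0.000277 for miR-142-5p and 0.000126 for miR-142-3p, the lowest over those alternatives, in which the adjusted p reached 0.928 for both. limma-voom, the study's own test, called these 2 of the 6 and neither arm of miR-150, among 20 of the 359 in either direction. Leaving out CIA_B replicate 1 also reduced the count to these 2.

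At 34 days the arms were compared directly, to set tissue of the stimulated arm against that of the placebo arm. In the study the saline was the placebo for methotrexate, a drug arm without libraries here. PLA_A therefore does not control for the needling itself. Of the 6 miRNAs, 5 were called lower in MS_A than in PLA_A (1.67% of the miRNAs tested were called lower), which are 5 of the 6 lower calls in that comparison. miR-142-3p was lower by 4.25 on the log2 scale (log2 difference -4.25, SE 1.40), miR-142-5p differed by -3.71 (SE 0.950), miR-342-3p by -2.77 (SE 1.22), miR-342-5p by -2.49 (SE 1.19) and miR-150-3p by -2.42 (SE 0.930). miR-150-5p, at -1.78 (SE 1.15), did not pass. The adjusted p was 0.999 for all 6 by edgeR. By limma-voom only miR-142-5p of the 6 was called, and it was the only call among the 359. The groups did not overlap for 4 of the 6, with both MS_A libraries below both PLA_A libraries, against 12.5% of all miRNAs.

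These differences rested on PLA_A replicate 1. Without it, none of the 6 was called, miR-142-5p differed by -1.18 (SE 0.601, adjusted p = 0.998 by edgeR), and miR-150-5p and miR-342-3p changed sign, to 0.90 and 1.14. Leaving out MS_A replicate 1 left 1 of the 6 called, and leaving out MS_A replicate 2 left 2. The remaining PLA_A library was still above both MS_A libraries for both arms of miR-142, as its values of 551 and 30.8 cpm show.

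Within the placebo arm, 4 of the 6 were called higher at 34 days than at 1 h (1.95% of the miRNAs tested were called higher). The log2 differences were 3.52 for miR-142-3p (SE 1.35), 3.38 for miR-142-5p (SE 0.936), 2.25 for miR-342-5p (SE 1.16) and 2.08 for miR-150-3p (SE 0.915), with an adjusted p of 0.999 by edgeR. limma-voom called miR-142-5p and none of the other 5. Without PLA_A replicate 1, 0 of the 6 were called, and miR-142-5p was the member furthest from 0 in the direction of the rise, at 0.87 (SE 0.604). Without PLA_E replicate 2, 1 was called, and leaving out PLA_E replicate 1, MS_E replicate 1, MS_A replicate 1 or MS_A replicate 2 gave 2 each.

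In the stimulated arm, 0 of the 6 were called between MS_A and MS_E (3.9% of the miRNAs tested were called in either direction), and the log2 differences ran from -1.42 for miR-342-3p to 0.26 for miR-150-5p. Without PLA_A replicate 1, miR-342-3p was called at -1.50. The difference between the arms in this change over time was tested as an interaction. It was called lower in the stimulated arm for 2 of the 6 (3.34% of the miRNAs tested were called lower), miR-342-3p at -4.10 (SE 1.68) and miR-142-5p at -3.58 (SE 1.24), with an adjusted p of 0.993 by edgeR. limma-voom called neither. Without PLA_A replicate 1 neither was called, at -0.29 and -1.13, and without PLA_E replicate 2 none of the 6 was. Leaving out MS_E replicate 1 or MS_A replicate 1 gave 1, and leaving out PLA_A replicate 2 gave 5.

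**Figure D3:**
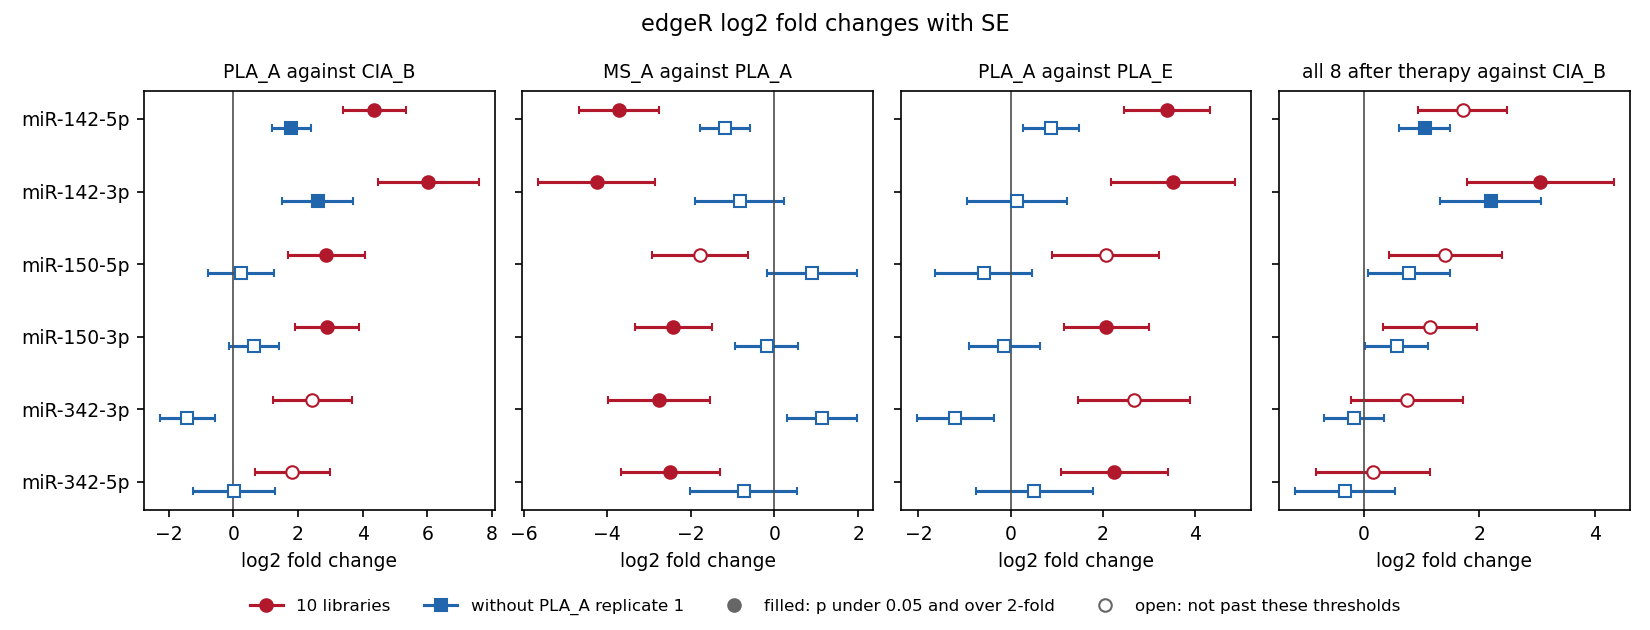
Log2 fold changes of the 6 miRNAs from edgeR (x, with SE as bars) in 4 comparisons, over the 10 libraries (circles) and without PLA_A replicate 1 (squares); filled symbols passed p under 0.05 and over 2-fold. In PLA_A against CIA_B, miR-142-5p and miR-142-3p remain filled without that library, at 1.80 and 2.61, and in MS_A against PLA_A all squares are open.

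The other groups after therapy were compared with CIA_B to follow each arm from before therapy. The 6 miRNAs had 0 calls in MS_E against CIA_B (6.41% of the miRNAs tested were called), 0 in MS_A against CIA_B (1.11%), and 0 in PLA_E against CIA_B (0.557%), with 0 at an unadjusted p under 0.05 in each. limma-voom also called 0 in these, and DESeq2 called miR-142-3p in PLA_E against CIA_B and none in the others. Both libraries lay above both CIA_B libraries for 3 of the 6 in MS_E (18.4% of all miRNAs), 3 in MS_A (16.2%) and 3 in PLA_E (11.7%), miR-142-5p and miR-142-3p each time. The log2 differences of miR-142-3p were 1.90 in MS_E (SE 1.35), 1.78 in MS_A (SE 1.34) and 2.51 in PLA_E (SE 1.37), and in PLA_E it was called without PLA_A replicate 1, without PLA_A replicate 2 or without PLA_E replicate 2, with log2 differences of 2.47, 2.51 and 3.31. Without PLA_E replicate 1 the PLA_E difference was 0.56, without MS_E replicate 2 the MS_E difference was 0.87, and without MS_A replicate 2 the MS_A difference was 1.12. At 1 h, 0 of the 6 were called between MS_E and PLA_E (3.9% were called), and the log2 differences ran from -0.61 for miR-142-3p to 1.33 for miR-342-3p. The value of miR-142-3p went to 1.33 without PLA_E replicate 1, to -1.64 without MS_E replicate 2, to -1.43 without PLA_E replicate 2 and to -0.09 without MS_E replicate 1.

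The comparisons of MS_E, PLA_E, MS_A and PLA_A with CIA_B share the 2 CIA_B libraries, so that the same low values of miR-142 enter each. The 8 libraries after therapy were also set against CIA_B together, which again uses the same 2 libraries. miR-142-3p was called, at a log2 difference of 3.06 (SE 1.27, adjusted p = 0.932 by edgeR), and was 1 of 6 (2.51% of the miRNAs tested were called higher). limma-voom called none of the 6. miR-142-5p, at 1.71 (SE 0.766), passed only when PLA_A replicate 1 or 2 was left out, by DESeq2 or with no filter on low counts. All 8 libraries were above both CIA_B libraries for both arms of miR-142, against 3.34% of all miRNAs, and 7 of 8 were for miR-150-3p, 4 for miR-150-5p, 3 for miR-342-3p and 1 for miR-342-5p. In a two-sided exact permutation test of the mean log2(cpm + 1) over the 45 ways to choose 2 of the 10 libraries, whose smallest possible p is 0.0222, the difference was 2.43 for miR-142-3p (p = 0.133), 1.58 for miR-142-5p (p = 0.2), 1.02 for miR-150-3p (p = 0.222), 1.02 for miR-150-5p (p = 0.4), 0.45 for miR-342-5p (p = 0.489) and 0.35 for miR-342-3p (p = 0.778), and none passed. For both arms of miR-142 both CIA_B libraries were the lowest, so no other choice gave a larger rise. The other choices counted in their two-sided p were falls, in which the 2 libraries chosen included PLA_A replicate 1. Without CIA_B replicate 1, without CIA_B replicate 2 or without PLA_E replicate 1, none of the 6 was called in the pooled comparison, and 2 were without PLA_A replicate 1 and 3 without PLA_A replicate 2.

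The division of each group by miR-1-3p moved with miR-150-5p. It was higher in the library with more miR-1-3p in 5 of 5 groups, by 1.67 times in CIA_B, 5.40 in MS_E, 2.53 in PLA_E, 3.14 in MS_A and 11.8 in PLA_A, a pattern shown by 17.5% of the miRNAs tested. miR-142-3p, miR-150-3p, miR-342-3p and miR-342-5p were higher there in 4 of 5 groups and miR-142-5p in 3 of 5. Among the 5 libraries with less miR-1-3p, where PLA_A is represented by its replicate 2, PLA_A was the highest group for both arms of miR-142 and of miR-150, at 2.64 times CIA_B for miR-142-5p, 6.16 for miR-142-3p, 1.54 for miR-150-5p and 1.29 for miR-150-3p, and the lowest for miR-342-3p, at 0.477 times CIA_B. There miR-342-5p was at 0.723 times CIA_B, on 7 reads in PLA_A and 12 in CIA_B. Among the 5 with more miR-1-3p PLA_A was the highest for all 6. With the division as a term in the fit, 4 of the 6 were called in PLA_A against CIA_B and 4 in MS_A against PLA_A, among 47 and 14 of the 359 in either direction. The part of the division in these levels was not tested further.

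The shares of the 2 arms, which do not depend on the scaling between libraries, also differed by that division. Of the reads on the miR-142 hairpin, the 3p arm took 4.10% (exact binomial 95% interval 1.34 to 9.31), 8.58%, 11.8%, 9.18% and 9.80% in the libraries of CIA_B, MS_E, PLA_E, MS_A and PLA_A with more miR-1-3p. In the libraries of the same groups with less, it took 2.34%, 3.36%, 2.90%, 4.16% and 5.30% (interval 4.55 to 6.13 in PLA_A). The share was thus higher in 5 of 5 groups in the library with more miR-1-3p, as for 14.9% of the 101 hairpins with both arms tested, although the 2 intervals of CIA_B overlapped, and within each of the 2 sets CIA_B had the lowest share. In PLA_A replicate 1 the share of 9.80% (interval 9.44 to 10.2) lay within the range of the libraries with more miR-1-3p, which ran from 4.10% to 11.8%.

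The miR-150 hairpin went the other way. Its 3p arm took 0.302%, 0.383%, 0.622%, 0.310% and 0.731% of its reads in the libraries with more miR-1-3p, in the same order of groups, and 1.14%, 1.25%, 0.899%, 0.894% and 0.960% in those with less. All 5 of the former were below all 5 of the latter, as for 13.9% of the 101 hairpins, although the exact intervals of single libraries overlapped in CIA_B, PLA_E and PLA_A. In miR-342 the 3p arm held 87.7% to 100% of the reads, and was the higher in the library with more miR-1-3p in 3 of 5 groups.

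**Figure D4:**
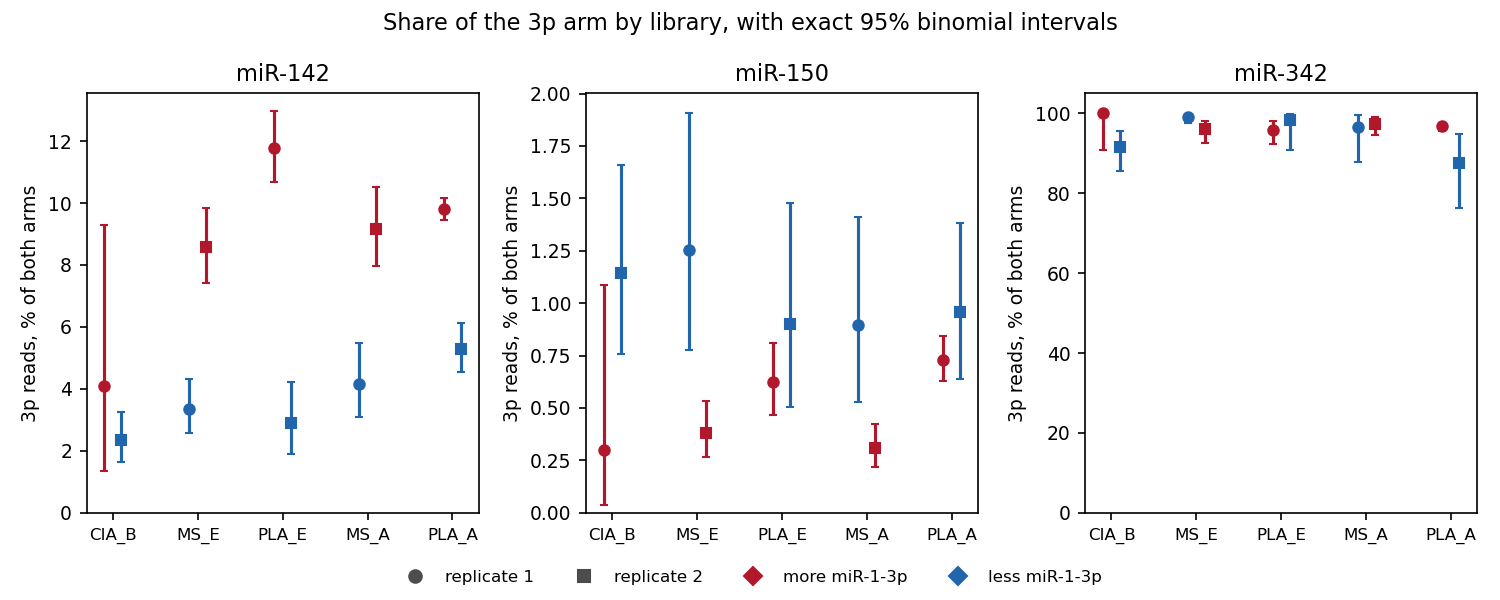
Share of the 3p arm among the reads of each hairpin (y, percent) by group (x), with exact 95% binomial intervals; red marks the library with more miR-1-3p, and circles and squares are replicates 1 and 2. For miR-142 the red points are the higher of the pair in all 5 groups (4.10% to 11.8%), for miR-150 they are the lower (0.302% to 0.731%), and for miR-342 they are not divided.

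Across the 10 libraries, on log2(cpm + 1), miR-142-5p and miR-150-3p had a Pearson correlation of 0.974 and miR-142-5p and miR-142-3p of 0.937, as a description of points that include PLA_A replicate 1. Over the 9 libraries without it these were 0.829 and 0.767. The more abundant miR-150-5p went from 0.750 to 0.147 with miR-142-5p and from 0.891 to 0.696 with miR-142-3p. The value of miR-342-3p with miR-142-5p went from 0.647 to -0.372. The 5 miRNAs outside these hairpins with the highest correlation with miR-142-5p were miR-92a-1-5p (0.891), miR-32-5p (0.853), miR-15b-3p (0.823), miR-708-5p (0.793) and miR-147 (0.793). Without PLA_A replicate 1, miR-147 stood at 0.908 and miR-32-5p at 0.822, and the other three were between 0.386 and 0.513. Both are scarce, with medians of 6.5 reads for miR-147 and 17 for miR-32-5p.

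Other miRNAs of immune cells were counted beside these, from a list of 10 names of which 9 were found and tested. miR-223-3p, a miRNA of neutrophils and monocytes, was at 43.3 and 45.9 cpm in PLA_A and at 10.4 and 28.1 cpm in CIA_B. None of the 9 exceeded the other libraries in PLA_A replicate 1 by more than 1.21 times, and their summed level there, 22740 cpm, lay within the 16258 to 31716 cpm of all libraries. Most of that sum was miR-181a-5p (13213 cpm) and miR-21-5p (5311 cpm), so it says little of scarcer members such as miR-223-3p. In PLA_A against CIA_B, 2 of the 9 were called higher and none lower, with a median log2 difference of -0.02. These were miR-147 (2.24, SE 1.06), an inflammation-induced miRNA, and miR-21-5p (1.40, SE 0.537), which is broadly raised in activated and injured tissue. In MS_A against PLA_A, PLA_A against PLA_E and the interaction none of the 9 was called in either direction, and in all 8 libraries against CIA_B miR-223-3p was, at 1.33 (SE 0.487). It was also called higher in MS_E against CIA_B (1.75, SE 0.574), with miR-146b-5p (1.46, SE 0.601), and in MS_A against CIA_B (1.45, SE 0.570), comparisons in which none of the 6 was called. Without MS_E replicate 1, miR-146b-5p was at 0.32 in MS_E against CIA_B and did not pass.

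Markers of blood and of other tissue cells were also set beside the rise in PLA_A. Of 3 erythroid miRNAs, miR-144-3p (log2 difference 2.85, SE 1.36) and miR-144-5p (1.50) were called in PLA_A against CIA_B, while the defining marker miR-451-5p was at 24.2 and 41.6 cpm in PLA_A and at 19.9 and 12.9 cpm in CIA_B. Their sum was 42.6 and 67.5 cpm in the 2 PLA_A libraries, against 17.4 to 88.6 cpm over all 10, and none of the 3 was highest in PLA_A replicate 1. Of 6 skeletal muscle miRNAs none was called in PLA_A against CIA_B, nor of 6 epithelial or 2 endothelial ones. The sums in PLA_A replicate 1 were 189925 cpm for muscle, 135 cpm for epithelium and 13405 cpm for endothelium, each within the range of the other libraries. Of the single miRNAs, 2 of the 6 for muscle and 1 of the 2 for endothelium were highest in that library, by at most 1.34 and 1.11 times. In MS_E against CIA_B, 4 of 6 epithelial miRNAs and miR-451-5p were called higher, and miR-208b-3p (-3.35) and miR-499-5p (-2.97) lower. In all 8 libraries against CIA_B the muscle miRNAs miR-208b-3p (-1.74) and miR-499-5p (-1.36) were called lower and the epithelial miR-200b-3p (2.69) and miR-200c-3p (3.15) higher, and miR-141-3p was called in the interaction (-6.31). MS_E replicate 1 was the highest library for these epithelial miRNAs, at 34.1 cpm of miR-200b-3p against 0 to 2.28 cpm in the other 9. Without it, a choice made after seeing the data, miR-200b-3p was still called in the pooled comparison (1.87), while miR-200c-3p (2.79), miR-208b-3p (-1.68) and miR-499-5p (-1.31) did not pass there, nor did miR-141-3p in the interaction (-1.32). In MS_E against CIA_B it left miR-200b-3p and miR-499-5p called, but not the other 3 epithelial miRNAs, miR-208b-3p or miR-451-5p, and in PLA_A against CIA_B miR-144-3p (2.81) did not pass. The part of these markers in the levels of the 6 miRNAs was not tested.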

How the data were processed

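Small RNA from 10 rat tissue libraries, in 5 groups of 2 taken from the labels, was sequenced by the authors on an Illumina HiSeq. They removed adapters and reads that were too short, and mapped the rest with miRDeep2 (Bowtie, CASAVA 1.8 and rn4 are in the submitters' processing notes). The deposited values are whole read counts per mature miRNA and precursor, not normalised. Where a mature miRNA had several precursor rows (35 miRNAs, none of the 6 described), the largest count was kept. A table of the whole series with 20 value columns, whose names match no sample's labels, was not used.

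Counts were tested with edgeR 4.0.16 in R 4.3.3 (TMM, quasi-likelihood test, prior count 2, a mean per group over all 10 libraries), on the miRNAs that reached 1 cpm in 5 or more libraries. Adjusted p-values are Benjamini-Hochberg over all 359. The SE is the unshrunken coefficient over the root of its F. The script was tested on simulated data. Alternatives were limma-voom (limma 3.58.1, the study's own test), DESeq2 1.42.0, other scalings and filters, a replicate block, the miR-1-3p division as a term, counts summed over precursors, and each library left out. Exact tests used log2(cpm + 1). Intervals and the limit of 3 counts cover counting error only. The members, the marker lists and the alternatives were chosen with earlier results of these data known. Named were the 6 miRNAs, the called or defining members of the marker lists, and the 5 miRNAs most correlated with miR-142-5p. miR-34c-5p, miR-92a-1-5p, the neighbours of miR-150-5p and the list members miR-206-3p, miR-133a-3p and miR-181a-5p were added after their values were seen. miR-155-5p and miR-486, on the lists, were not analysed here.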

Additional observations from a re-analysis of the deposited data

Results flagged for a closer look

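In PLA_A replicate 1 each of the 6 miRNAs lay further from the next of the 8 libraries taken after therapy began than Dixon's test allows at the 95% level. The gap to the nearest library, as a fraction of the whole range of the 8 cpm values, was 0.942 for miR-142-5p, 0.932 for miR-142-3p, 0.906 for miR-150-3p, 0.874 for miR-342-5p, 0.793 for miR-150-5p and 0.747 for miR-342-3p. The limit at that level is 0.526, which chance alone passes in about 1 of 20 groups of normally distributed values. The cpm values were not transformed for it. The 6 values come from a single library and are not independent. The 8 libraries belong to 4 groups, so this compares a library with others of different treatment and time. Why it stood apart was not tested.

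The change from 1 h to 34 days differed between the arms for miR-142-5p (log2 -3.58, MS minus PLA) and miR-342-3p (-4.10) by the interaction term, at an unadjusted p of 0.0179 and 0.0356 by edgeR, with an adjusted p of 0.993 for both. Both passed the threshold only with PLA_A replicate 1 in the fit.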

How the results depend on the processing

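By edgeR over all 10 libraries, 0 of the 6 passed an adjusted p of 0.05. Only DESeq2 (both arms of miR-142 in PLA_A against CIA_B and in MS_A against PLA_A) and leaving out PLA_A replicate 2 (miR-142-5p) gave any. By limma-voom, 2 were called in PLA_A against CIA_B, 1 in MS_A against PLA_A, 1 in PLA_A against PLA_E, 0 in the interaction and 0 in the 8 libraries against CIA_B. When a mean of 100 counts was required, which fewer of the 6 reach, these counts were 2, 2, 1, 1 and 0. DESeq2 called 1 in PLA_E against CIA_B and 2 in the 8 libraries, and so did edgeR without a filter. In PLA_A against PLA_E, DESeq2's size factors gave 2, library size alone 2 (1 in the interaction), and only the 4 libraries compared 1. That last choice gave 1 each in MS_E, MS_A and PLA_E against CIA_B. The miR-1-3p division as a term gave 4 in the interaction, and turned miR-342-5p to -0.28 in the 8 libraries against CIA_B. Over the alternatives other than leaving out a library, the number called among all miRNAs tested moved too. It ran from 13 to 47 in PLA_A against CIA_B, 1 to 14 in MS_A against PLA_A and 1 to 17 in PLA_A against PLA_E. It ran from 4 to 16 in the interaction and 7 to 18 in the 8 libraries against CIA_B. In MS_E, MS_A and PLA_E against CIA_B it ran from 19 to 41, 2 to 12 and 1 to 9. The causes were not tested.

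The replicate numbers do not pair the libraries: deviations of same-numbered libraries correlated between -0.554 and 0.634, over 0.1 in 4 of 10 pairs of groups. In those 4 the library with more miR-1-3p has the same number in both groups. In the other 6 its number differs, and the correlation was under -0.1. With the replicate block 3 were called in MS_A against PLA_A, 2 in PLA_A against PLA_E and 1 in the interaction. The number called among all miRNAs tested moved over the alternatives other than leaving out a library, the block among them. In the same order it ran from 1 to 14, 1 to 17 and 4 to 16.

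Leaving out 1 library at a time, where a lone library is assumed to vary like the others, the number called ran from 2 to 6 in PLA_A against CIA_B, 0 to 6 in MS_A against PLA_A, 0 to 6 in PLA_A against PLA_E, 0 to 5 in the interaction, 0 to 3 in the 8 libraries against CIA_B, 0 to 1 in PLA_E against CIA_B and 0 to 1 in MS_A against MS_E (miR-342-3p, without PLA_A replicate 1). The number called among all miRNAs tested moved too, from 9 to 33, 2 to 14, 2 to 22, 3 to 17, 3 to 20, 1 to 9 and 4 to 30 in the same order. In the 5 comparisons with a call over all 10 libraries, the log2 differences that changed sign were miR-342-3p in PLA_A against CIA_B (-1.42 to 3.31), MS_A against PLA_A (-3.61 to 1.14), PLA_A against PLA_E (-1.21 to 3.51) and the 8 libraries (-0.17 to 1.08). Others were miR-150-5p in MS_A against PLA_A (-2.80 to 0.90), PLA_A against PLA_E (-0.59 to 2.89) and the interaction (-2.78 to 0.84), miR-150-3p in PLA_A against PLA_E (-0.14 to 2.80) and the interaction (-2.76 to 0.15), and miR-342-5p in the 8 libraries (-0.38 to 2.20). In the exact test the differences of miR-342-3p (-0.087 to 0.73) and miR-342-5p (-0.28 to 1.18) changed sign. The direction of miR-142-5p and miR-142-3p held in every alternative of those 5 comparisons. With a library left out, however, miR-142-3p shrank to as little as 0.14 in PLA_A against PLA_E and -0.28 in the interaction. Signs also changed in the other 5, for miR-142-3p in MS_E against PLA_E (-1.64 to 1.33) and MS_A against MS_E (-0.74 to 0.91), for miR-142-5p in MS_E against PLA_E (-0.41 to 0.22), and for other members in each. At 2 libraries a group, the depth of CIA_B replicate 1 and the spread within groups limit what can be seen.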

Other observations

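miR-150-5p, whose level moved with the miR-1-3p division, had its own closest neighbours among the miRNAs tested, looked up after its values were seen. Over the 10 libraries, on log2(cpm + 1), they were miR-425-5p (Pearson correlation 0.944), miR-140-5p (0.937), miR-872-3p (0.910), miR-455-3p (0.908) and miR-505-3p (0.908). Without PLA_A replicate 1 they stood at 0.904, 0.867, 0.985, 0.873 and 0.927. None of the 5 is among the 5 closest to miR-142-5p. These are descriptions over libraries that share depth and the miR-1-3p division.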
